A study of Homo sapiens with 6 samples.

Results

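MORF4L1 and 9 genes whose products bind it or share its complex were followed in T24 bladder cancer cells after silencing of RBM3. The 10 members, of 63677 gene identifiers in the count table, were its paralog MORF4L2, the partners MRGBP and MRFAP1, and the NuA4 subunits KAT5, EP400, TRRAP, DMAP1, ING3 and EPC1. MORF4L1 was selected on its lower level after RBM3 silencing in these same libraries, so its values are a description with no test. The other 9 genes were listed for their relation to MORF4L1 and could be tested, although earlier results of these data were known when they were listed. T24 is an established line from a grade 3 bladder carcinoma. The RNA-sequencing compared 3 libraries of cells given a non-targeting control siRNA (replicates 1, 3 and 5) with 3 libraries of cells given a mixture of the siRNAs s11858 and s11860 against RBM3 (siRBM3, replicates 3, 4 and 5). Both groups received siRNA at 25 nM in a lipid reagent for 4.5 h, and cells were harvested the next day. The sources used here do not say whether the libraries of a group came from separate cultures, so p-values measure the spread between these samples, which may be technical. The siRNAs were used as a mixture in 1 cell line, so the effect of each siRNA alone was not measured.

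MORF4L1, also called MRG15, carries a chromodomain that reads methylated lysine on histone H3 and an MRG domain through which it holds its partners. In human cells it is a subunit of the NuA4 (TIP60) complex, in which KAT5 acetylates histones H4 and H2A, EP400 remodels nucleosomes, and TRRAP serves as the large scaffold that activators contact. The same protein also works in a SIN3-histone deacetylase complex, so MORF4L1 is found both where acetyl groups are added and where they are removed. MORF4L2 (MRGX) is a paralog with an MRG domain and no chromodomain.

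The MORF4L1 gene lies at chr15:79102829-79190481 on the plus strand of GRCh37 (ENSG00000185787), and its exons overlapped those of no other annotated gene. Its mRNA has been copied into the genome several times, and these processed pseudogenes carry no introns. The closest copy, MORF4L1P1 (ENSG00000218283, chr1:220426912-220427878, plus strand), lies within the span of RAB3GAP2 on the opposite strand. It matched 960 of 967 bases of the MORF4L1 transcript (99.3%) with 7 mismatches and 0 gaps. Less similar copies were MORF4 on chromosome 4 and MORF4L1P3 on chromosome 11, which matched at 96.3% and 94.3%. The first 75 coding bases, equal to 1 read, show how little separates them. The sequences are those of the annotated transcripts on GRCh37, given 5′ to 3′ along the gene or copy. For MORF4L1 this is the transcript without introns, and capitals mark bases that differ from it.
MORF4L1: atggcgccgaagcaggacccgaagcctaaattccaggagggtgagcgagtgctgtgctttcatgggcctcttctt
MORF4L1P1: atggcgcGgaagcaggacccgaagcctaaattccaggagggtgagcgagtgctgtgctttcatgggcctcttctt
MORF4: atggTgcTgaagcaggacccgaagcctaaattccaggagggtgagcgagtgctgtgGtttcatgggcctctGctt
MORF4L1P3: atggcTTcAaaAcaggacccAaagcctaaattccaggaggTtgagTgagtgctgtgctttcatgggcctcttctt
The copies shown lie at chr1:220426912-220426986 (plus strand), chr4:174537983-174538057 (minus strand) and chr11:14696027-14696101 (minus strand).

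In this stretch MORF4L1P1 differed at 1 base, MORF4 at 4 and MORF4L1P3 at 7. The differences of MORF4L1P1 fell at bases 136, 293, 528, 615, 857, 953 and 1046 of the MORF4L1 transcript, counted from 1 at its 5′ end, all in the coding part (bases 129 to 1097). They lie far enough apart that no read of 75 bases can span more than 1 of them. Of all 2098 windows of 75 bases in the canonical MORF4L1 transcript, 721 (34.4%) occurred without a mismatch elsewhere in the genome. Conversely, 460 of the 893 windows of MORF4L1P1 (51.5%) were found unchanged in the MORF4L1 transcript. Most of the shared windows of MORF4L1 were at MORF4L1P1 (509) or beside it in RAB3GAP2 (154). Thus the counts of MORF4L1 and MORF4L1P1 are uncertain to the extent that reads could be placed at either gene. Of the other members, EP400 shared 652 of 12215 windows (5.34%) with its neighbour EP400P1, and the other 8 shared 0. MORF4L2 matched MORF4L1 at 78.6% of alignment positions, gaps included, and had 0 windows of 75 bases in common with it.

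**Figure D1:**
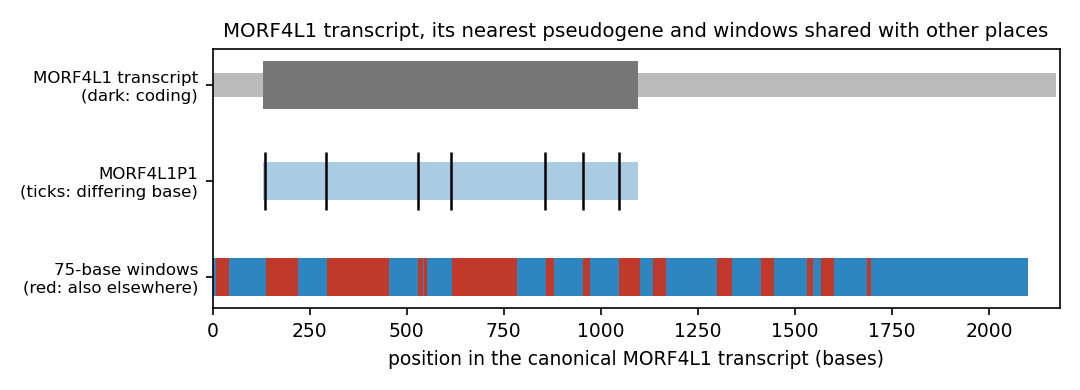
The canonical MORF4L1 transcript (top, coding part dark), the stretch matched by MORF4L1P1 with ticks at the 7 differing bases (middle), and the start of each 75-base window (bottom, red where it also occurs elsewhere in the genome without a mismatch), along the position in the transcript in bases. The 721 red windows of 2098 lie mainly between the differing bases in the coding part.

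Levels are given in CPM, the counts of a gene per 1e+06 counts of its library after scaling by TMM factors. The libraries held 23603992 to 45098612 counts, and the 10 members had 405 to 19638 counts each per library. The deepest library, siRBM3 replicate 3, also had the largest share of mitochondrial counts (9.4%, against 1.63% to 4.15% in the other 5). The targeted gene RBM3 was at 225, 368 and 301 TMM-scaled CPM in the controls and at 54.1, 90.1 and 58.4 in siRBM3. The groups did not overlap, with a log2 fold change of -2.14 ± 0.24 (SE) and p = 0.1 in an exact two-sided permutation test, the smallest p that 3 against 3 libraries allow. Of 14 cell type markers, 13 were matched to an identifier. The keratins KRT7, KRT8, KRT18 and KRT19 were detected in every library, KRT7 at 3100 to 3240 CPM in control and 2350 to 2540 in siRBM3. EPCAM, a further epithelial marker, was low, at 4.9 to 6.87 CPM. The urothelial markers GATA3 (9.31 to 14.3 CPM) and UPK2 (1.13 to 1.86) were low too. TP63 was at 0.0383 to 0.655 CPM and UPK3A stayed under 0.1 CPM. PTPRC, CD3E, VWF and ALB, which mark other cells, reached at most 0.689 CPM. The part of the keratin and mitochondrial differences in the results was not tested.

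MORF4L1 was at 204, 248 and 231 CPM in control replicates 1, 3 and 5, and at 108, 139 and 97.2 CPM in siRBM3 replicates 3, 4 and 5. Each siRBM3 library was below each control library, and the highest siRBM3 library, replicate 4, was still well under the lowest control. The means were 228 ± 22.3 and 115 ± 21.9 CPM (SD, n = 3 each), so that siRBM3 cells held 50.5% of the control level (log2 fold change -0.99). Leaving out each library in turn gave log2 fold changes from -1.15 to -0.88, and without the mitochondria-rich siRBM3 replicate 3 the value was -0.94. These values chose the gene and carry no test. In bulk RNA, a lower level in each cell and fewer cells that hold the transcript cannot be told apart.

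**Figure D2:**
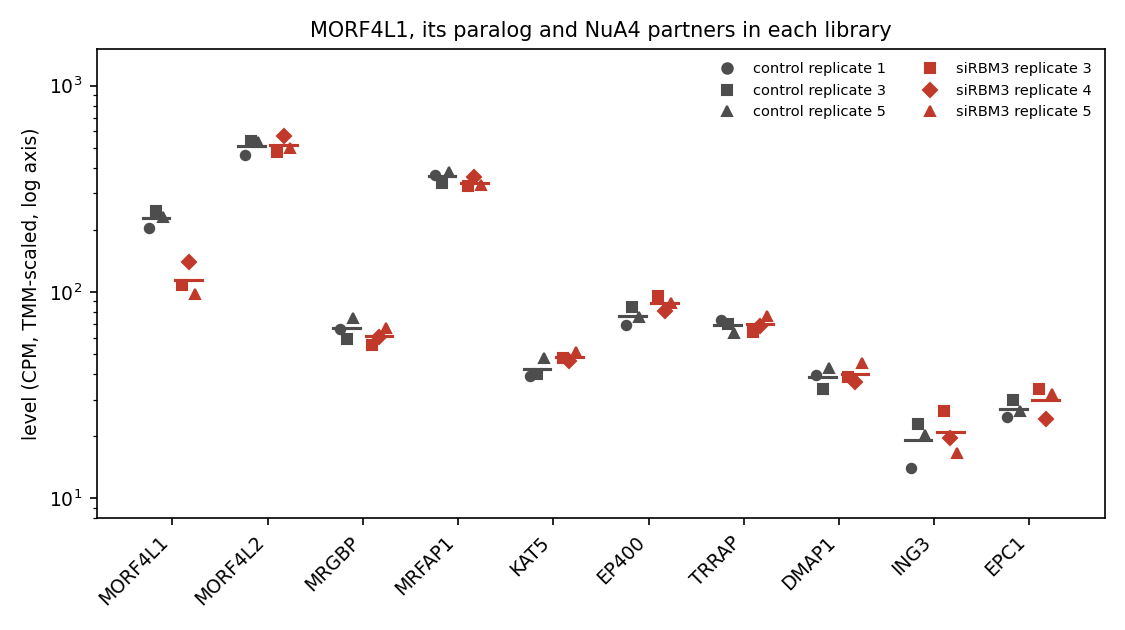
Level of each of the 10 members in every library, in TMM-scaled CPM on a log axis, with control and siRBM3 libraries as separate points and group means as bars. MORF4L1, chosen for its fall, is at 204 to 248 CPM in control and 97.2 to 139 in siRBM3. Of the 9 partners, 0 have every siRBM3 library above every control library and 0 every one below. The shares over all genes are 9.98% and 9.93%.

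MORF4L1P1 had 232, 267 and 203 counts in control and 150, 118 and 99 in siRBM3, although the siRBM3 libraries include the deepest. Scaled, this was 8.0, 10.2 and 7.64 CPM against 3.66, 4.66 and 3.99, a log2 fold change of -1.07. Each siRBM3 library was below each control library, and because the pseudogene shares sequence with a gene chosen for its change, no test was applied. As a share of the MORF4L1 count it made up 3.92, 4.12 and 3.31% in control and 3.38, 3.34 and 4.11% in siRBM3 (3.78 ± 0.422 and 3.61 ± 0.433%, SD, n = 3). The shares of the groups overlapped. RAB3GAP2, in whose span the pseudogene lies, had a log2 fold change of -0.04 ± 0.12. How far the counts of MORF4L1P1 came from reads of MORF4L1 was not tested. The remaining copies were nearly silent: MORF4 had 0 to 2 counts and MORF4L1P5 0 to 1 count per library, while MORF4L1P3, MORF4L1P4, MORF4L1P6, MORF4L1P7 and MORF4L2P1 had 0 counts in every library. Summing the counts of MORF4L1 with those of all its pseudogenes left the log2 fold change at -0.99. The copies add few counts and MORF4L1P1 was itself lower, so this sum could not show whether reads were misplaced.

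**Figure D3:**
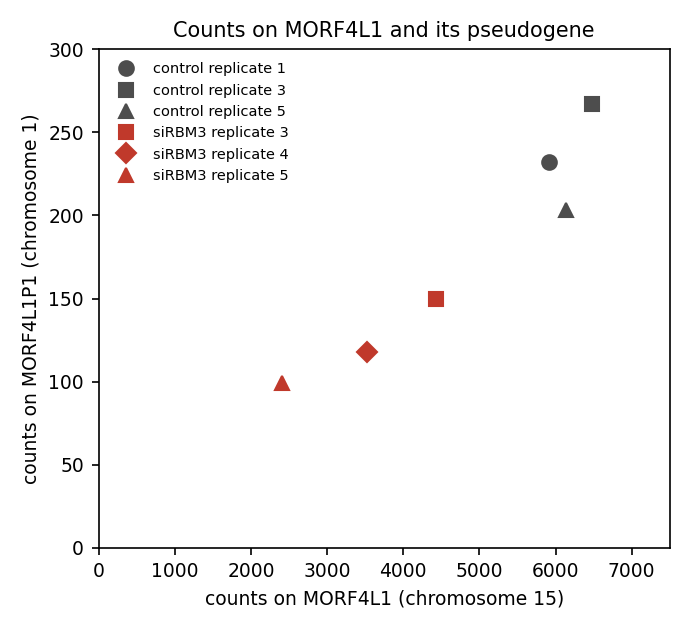
Counts of MORF4L1P1 (vertical axis) against counts of MORF4L1 (horizontal axis), with 1 point for each of the 6 libraries, not scaled for depth. The siRBM3 libraries have 99 to 150 counts of the pseudogene and the controls 203 to 267, a share of 3.31 to 4.12% of the MORF4L1 count over all 6.

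The paralog MORF4L2 (chrX:102930424-102943086, minus strand) was the member with the highest counts. It was at 460, 538 and 530 CPM in control and 479, 567 and 497 CPM in siRBM3. The groups overlapped almost entirely, with a log2 fold change of 0.01 ± 0.11 (SE), a 95% interval of -0.23 to 0.26 and an adjusted p of 0.968 in the quasi-likelihood test of edgeR. This interval lies within a 1.5-fold change in either direction. MORF4L2 was not tested against MORF4L1, since the value of MORF4L1 chose that gene. The 2 paralogs can be set against each other within each library, which removes the scaling. MORF4L1 had 0.443, 0.461 and 0.436 counts for each MORF4L2 count in control and 0.226, 0.246 and 0.196 in siRBM3 (0.447 ± 0.0129 and 0.223 ± 0.0252, SD, n = 3). This ratio varied little between control libraries and did not overlap between groups, but it contains the gene chosen for its fall and was not tested. MORF4L2-AS1, a long non-coding RNA on the other strand that overlaps 6.42% of the MORF4L2 exons, had 14 to 42 counts per library. Its log2 fold change was 0.43 with a 95% interval of -0.45 to 1.32, so neither a change nor its absence could be shown at this depth.

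MRGBP (chr20:61427825-61433081, plus strand) encodes the subunit that tethers the MRG domain to NuA4. It was at 66.3, 58.9 and 74.5 CPM in control and 55.6, 60.7 and 67.1 CPM in siRBM3. The siRBM3 values lay within or just under the control range, with a log2 fold change of -0.12 ± 0.12, a 95% interval of -0.40 to 0.15 and an adjusted p of 0.711 (edgeR). About 16.5% of its exon bases overlap OGFR-AS1. MRFAP1 (chr4:6641818-6644456, plus strand), a small protein that binds the MRG domain in competition with MRGBP, was at 370, 336 and 382 CPM in control and 325, 360 and 328 CPM in siRBM3. Control replicate 3 was below the highest siRBM3 library, and the log2 fold change was -0.10 ± 0.09 (95% interval -0.32 to 0.11, adjusted p = 0.699 with edgeR). Both means were lower in siRBM3, but the groups overlapped in both genes and neither difference passed the test.

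KAT5 (chr11:65479467-65487075, plus strand), the acetyltransferase of the complex also known as TIP60, was at 39.1, 39.9 and 48.1 CPM in control and 47.6, 46.4 and 51.3 CPM in siRBM3. Control replicate 5 lay within the siRBM3 range, and the log2 fold change was 0.20 ± 0.12 (95% interval -0.07 to 0.46, adjusted p = 0.518 with edgeR). This value is uncertain for a further reason: 38.6% of the KAT5 exon bases overlap RNASEH2C on the opposite strand, and whether strand was used in counting is not stated in the methods or labels. RNASEH2C, a subunit of ribonuclease H2, was lower in every siRBM3 library, with 45.9, 42.0 and 42.6 CPM in control and 36.0, 35.2 and 39.1 in siRBM3 (log2 fold change -0.24, adjusted p = 0.356 with edgeR).

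EP400 (chr12:132434487-132565005, plus strand), the ATPase that exchanges H2A.Z into nucleosomes, was at 69.4, 84.1 and 75.8 CPM in control and 95.6, 81.0 and 88.4 CPM in siRBM3. The 3 control libraries were further apart than the group means, with a log2 fold change of 0.21 ± 0.11 and an adjusted p of 0.467, the smallest among the partners (edgeR, 95% interval -0.04 to 0.46). The neighbouring pseudogene EP400P1, which shares windows with EP400, was at 7.2, 6.46 and 7.57 CPM in control and 5.75, 5.37 and 6.5 CPM in siRBM3. Its count was 9.36 ± 1.46% of that of EP400 in control and 6.66 ± 0.671% in siRBM3 (SD, n = 3). TRRAP (chr7:98475556-98648454, plus strand) was at 73.3, 69.8 and 63.5 CPM in control and 64.3, 68.6 and 76.3 CPM in siRBM3, with a log2 fold change of 0.02 ± 0.11 and a 95% interval of -0.22 to 0.26 (adjusted p = 0.959 with edgeR). Both ranges were almost the same.

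EPC1 and ING3 form the catalytic core of NuA4 together with KAT5. EPC1 (chr10:32556679-32667726, minus strand), which bridges the catalytic module to the rest of the complex, was at 24.9, 30.1 and 26.4 CPM in control and 34.0, 24.3 and 32.0 CPM in siRBM3 (log2 fold change 0.15 ± 0.15, 95% interval -0.20 to 0.50). DMAP1 (chr1:44679127-44686353, plus strand), a subunit that the NuA4 and SRCAP complexes share, was at 39.6, 33.8 and 42.9 CPM in control and 38.5, 36.6 and 45.2 CPM in siRBM3 (0.05 ± 0.13, 95% interval -0.26 to 0.35). In each of these genes the groups overlapped, with adjusted p of 0.721 and 0.913 in edgeR. ING3 (chr7:120590817-120617270, plus strand), a reader of trimethylated lysine 4 on histone H3, was at 14.0, 22.9 and 20.3 CPM in control and 26.5, 19.5 and 16.5 CPM in siRBM3. It had the widest spread between libraries of all members (coefficient of variation 24.2% in control), and its log2 fold change of 0.13 ± 0.23 had a 95% interval of -0.39 to 0.66 (adjusted p = 0.846 with edgeR).

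Over the 9 partners, 7 had a higher and 2 a lower fitted level in siRBM3, with a median log2 fold change of 0.05 and a range of -0.12 to 0.21, against a median of -0.01 over all 15099 genes tested. All 9 passed the filter on low counts. None passed the thresholds of a 1.5-fold change and an FDR of 0.01, which 0% of all genes passed in edgeR, since the smallest adjusted p in the table was 0.0822. DESeq2 called 0 of the 9 as well, while it called 0.667% of the 12589 genes it gave an adjusted p as higher and 0.604% as lower. At an unadjusted p under 0.05, 0 of the 9 were higher and 0 lower, against 6.56% and 6.58% of all genes. Likewise 0 of the 9 had every siRBM3 library above every control library and 0 had every one below, against 9.98% and 9.93% of all genes. With 9 genes, such shares of the background amount to about 1 gene or fewer, so the absence of calls does not set the partners apart. For 8 of the 9, all but ING3, the 95% interval lay within a 1.5-fold change in either direction. The same held for 48.8% of all genes tested and for 80.3% of 76 related chromatin genes described further on, so this does not set the partners apart either. In the same libraries MORF4L1 made up 17.6, 20.4 and 18.3% of the summed counts of its 9 partners in control and 9.26, 11 and 8.08% in siRBM3.

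**Figure D4:**
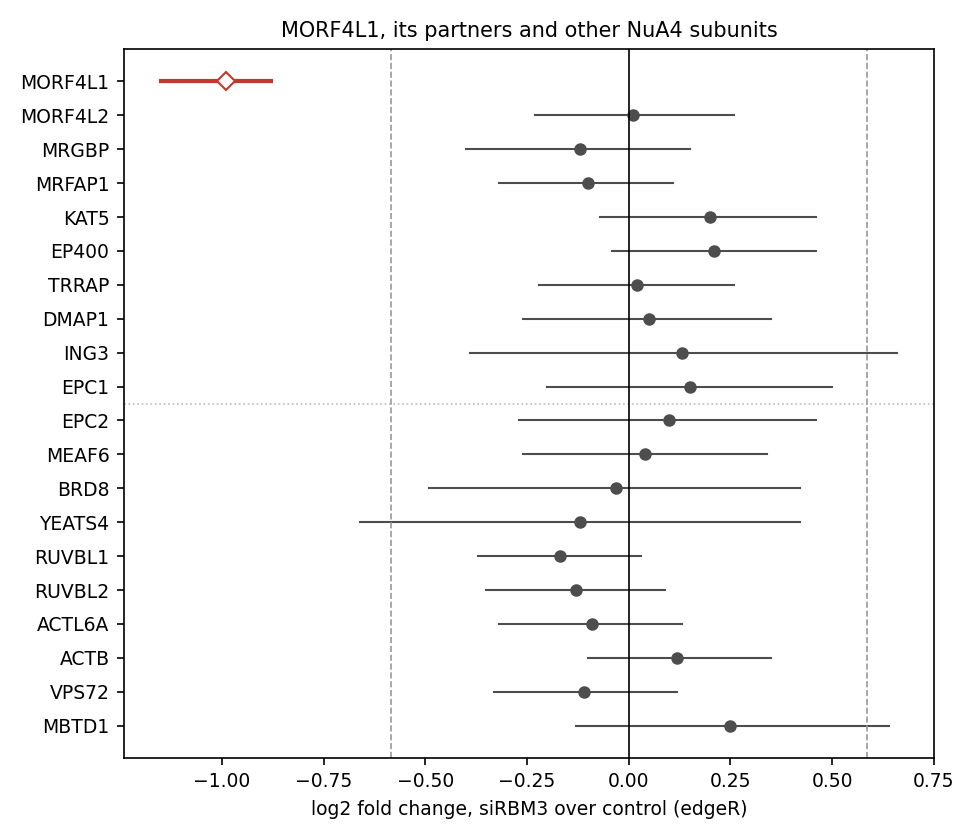
Log2 fold change of siRBM3 over control from edgeR, with 95% intervals for the 9 partners and the 10 other NuA4 subunits, and for MORF4L1 (red) the range when each library was left out; dashed lines mark a 1.5-fold change. MORF4L1, chosen for its change, is at -0.99, while its partners lie between -0.12 and 0.21 with intervals that all include 0.

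Levels of different genes were compared per kilobase of exon (CPM divided by the length of the union of annotated exons). In control cells MORF4L2 was at 192 ± 16.1, MRFAP1 at 137 ± 9.06, MORF4L1 at 34.7 ± 3.4 and MRGBP at 24.2 ± 2.83 CPM per kilobase (SD, n = 3). The catalytic and scaffold subunits were lower, with KAT5 at 11.3 ± 1.33, DMAP1 at 6.93 ± 0.824, EP400 at 4.24 ± 0.408, ING3 at 3.67 ± 0.887, TRRAP at 3.45 ± 0.249 and EPC1 at 2.4 ± 0.236. By this length, MORF4L2, MRFAP1, MORF4L1 and MRGBP were above every other member in control. For MRGBP this depended on the length, since its control range overlapped that of KAT5 per kilobase of the longest transcript and that of DMAP1 per kilobase of the canonical transcript. Per kilobase of exon union, the ranges of neighbours overlapped for EP400 and ING3 and for ING3 and TRRAP, and for no other neighbouring pair. In siRBM3, the mean of MORF4L1 (17.5 ± 3.35) stood below that of MRGBP (22.2 ± 2.08), although the ranges of these genes over the libraries overlapped. This change of place depended on the length used, because the exon union of MORF4L1 measures 6552 bases and its longest transcript 2359. Per kilobase of the longest transcript, MORF4L1 was at 96.5 ± 9.45 in control and 48.7 ± 9.29 in siRBM3 and kept its place after MRFAP1 in both groups.

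The other genes of these pathways were read from 6 lists, with 77 genes listed and 76 matched and tested. At the thresholds above edgeR called 0 of the 76, with an unadjusted p under 0.05 for 9 that were higher and 5 that were lower (backgrounds as given above), and DESeq2 called 1. In 14 of the 76 every siRBM3 library was above every control library and in 9 every one was below, against 9.98% and 9.93% of all genes. Of the 10 other NuA4 subunits, 4 were higher and 6 lower with a median log2 fold change of -0.06. The helicase-like ATPase RUVBL1 was lower in every siRBM3 library, at 110, 121 and 109 against 102, 101 and 99.3 CPM (log2 fold change -0.17, adjusted p = 0.466 with edgeR). Its partner RUVBL2 was at -0.13 and the methyl-lysine reader MBTD1 at 0.25 on the log2 scale, with adjusted p of 0.614 and 0.562 (edgeR). The actin of the complex, ACTB, was higher in every siRBM3 library (0.12, adjusted p = 0.646 with edgeR). None of the 10 passed the thresholds, as was so for every gene in edgeR.

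H2A.Z is the histone variant that the EP400 ATPase and the related SRCAP complex place in nucleosomes. Of 7 genes listed for H2A.Z and its exchange, the histone gene H2AZ1 stood apart. It was at 202, 164 and 210 CPM in control and 48.4, 111 and 71.3 CPM in siRBM3. The groups did not overlap, and the log2 fold change was -1.32 ± 0.28, with adjusted p = 0.139 in edgeR and 0.000252 in DESeq2. H2AZ1, under its older symbol H2AFZ, is among the genes labelled in the study's own plot of these libraries, so the value is not independent evidence. The other H2A.Z gene, H2AZ2, was at 153, 151 and 146 CPM against 115, 150 and 135 CPM, with a log2 fold change of -0.17 (adjusted p = 0.56 with edgeR), and ZNHIT1 of the SRCAP complex was at 0.09 (adjusted p = 0.745 with edgeR).

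Of 20 genes listed for SIN3-histone deacetylase complexes, 14 were higher and 6 lower, with a median log2 fold change of 0.11. Over all genes tested, 7325 of 15099 were higher. At an unadjusted p under 0.05, 3 of the 20 were higher and 0 lower, against 6.56% and 6.58% of all genes. The 3 were the demethylase KDM5B (0.36), the deacetylase HDAC2 (0.27) and PHF12 (0.24), with adjusted p of 0.244, 0.28 and 0.308 in edgeR. HDAC2 was at 138, 124 and 118 CPM in control and 156, 153 and 148 CPM in siRBM3, so that every siRBM3 library was above every control. Of 11 other genes listed as partners of MORF4L1, 4 were higher and 7 lower. The histone methyltransferases ASH1L, which MORF4L1 activates, and NSD1 were at 0.33 and 0.32 with adjusted p of 0.236 and 0.271, and MRFAP1L1, related to MRFAP1, was at -0.25 with an adjusted p of 0.354 (edgeR). None of these passed the test over all genes.

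Among 17 other genes of the MYST acetyltransferase family and its scaffolds, 10 were higher and 7 lower. The acetyltransferase KAT6B was at 39.1, 31.1 and 32.6 CPM in control and at 45.4 CPM or more in each siRBM3 library (0.46, adjusted p = 0.177 with edgeR and 0.0407 with DESeq2). The scaffold BRPF3 was at 51.5, 57.3 and 47.9 CPM in control and 34.9, 41.2 and 32.8 in siRBM3 (-0.52, adjusted p = 0.157 with edgeR and 0.0234 with DESeq2). The groups did not overlap in either gene, and neither met the thresholds in these fits. Of the 17, 4 had every siRBM3 library above every control library and 5 every one below, against 9.98% and 9.93% of all genes. JADE1, another scaffold of this family, was at -0.30 (adjusted p = 0.36 with edgeR). For the GCN5 and CBP acetyltransferases, 11 of 12 genes were matched, of which 6 were higher and 5 lower with a median of 0.06. The 3 with the smallest p, the adaptor TADA2B (0.37), the coactivator EP300 (0.34) and the deubiquitinase USP22 (0.24), were all higher, with adjusted p of 0.263, 0.325 and 0.409 in edgeR.

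**Figure D5:**
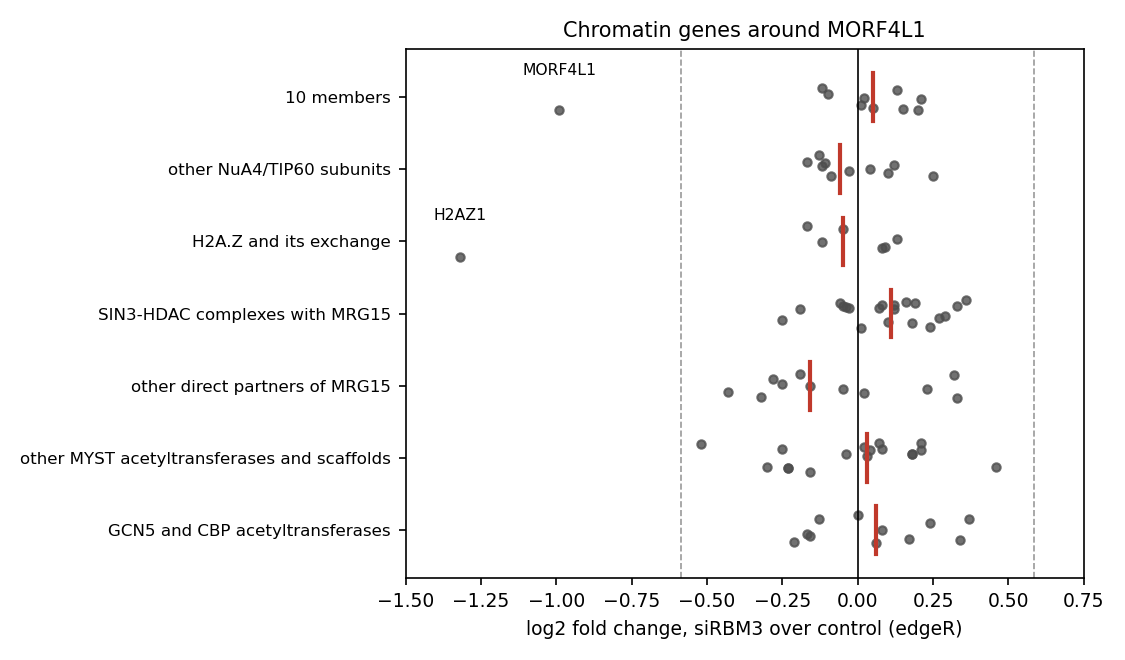
Log2 fold change of siRBM3 over control from edgeR for the 10 members and the 6 lists of related chromatin genes, with 1 point per gene, a red bar at the median (for the members, that of the 9 partners) and dashed lines at a 1.5-fold change. MORF4L1, chosen for its change, lies at -0.99 and H2AZ1 at -1.32; every other point lies between -0.52 and 0.46.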

How the data were processed

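Gene counts from 6 RNA-sequencing libraries (3 control, 3 siRBM3; poly(A) RNA, TruSeq stranded kit, single-end reads of 75 bases) were used. Per the labels and the methods of the study, the authors used STAR for alignment to hg19/GRCh37, Picard to mark duplicates and featureCounts to count. What they deposited are raw counts for each Ensembl identifier, without normalization. Not given in the sources used here are the annotation release, the strand setting and how duplicates and reads with several matches were treated.

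Of 63677 identifiers, 55665 were matched to GENCODE release 44 lifted to GRCh37, which also gave the coordinates, exon overlaps and lengths. Genes were kept by filterByExpr (minimum count 10, minimum total 15; 15099 genes). Counts were scaled by TMM and fitted with the robust quasi-likelihood method of edgeR 4.0.16, using all 6 libraries and group only. Benjamini-Hochberg adjustment ran over all genes tested. Calls needed a 1.5-fold change and an FDR under 0.01, the thresholds of the study, which used DESeq2. Alternatives, run in R 4.3.3, included limma 3.58.1 (voom) and DESeq2 1.42.0. The fits were tested on simulated counts. Total counts per library ranged from 23603992 to 45098612. No 2 libraries of a group agreed within sampling noise (chi-square per degree of freedom 27.7 to 141).

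Windows of 75 bases of each canonical transcript were searched for exact matches on both strands of the GRCh37 chromosomes. The members and gene lists were chosen with earlier results of these data known. The genes named were the members, RBM3, pseudogene and antisense genes of MORF4L1 and MORF4L2 with at least 1 count, the 3 genes with the smallest p of each list, and the 5 genes most like and 2 most opposite to MORF4L1 by Pearson correlation of log2 CPM. ACTB, RNASEH2C, RAB3GAP2 and EP400P1 were added after their values were seen. TADA2A and the marker PECAM1 were not matched.

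Replicate numbers 3 and 5 occur in both groups, but nothing in the labels ties them to a shared culture or day. With 2 shared numbers they were not treated as pairs.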

Additional observations from a re-analysis of the deposited data

How the results depend on the processing

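MORF4L1 was lower in siRBM3 under every alternative run (log2 fold change -0.99 with all libraries, -1.15 to -0.88 when each library was left out). All alternatives reuse the libraries in which MORF4L1 was chosen for its fall, so its direction under them is a description and no check. Of the 9 partners, 0 were called under any alternative. With replicate numbers 3 and 5 as a block the MORF4L1 value was -1.22. That fit leaves 1 residual degree of freedom, and the deviations of same-numbered libraries correlated at 0.53 (number 3) and 0.09 (number 5). The table-wide counts of calls moved most: edgeR called 0 genes higher and 0 lower, DESeq2 84 and 76, edgeR with no filter on low counts 127 and 152, edgeR with the block 145 and 191, and edgeR at an FDR of 0.1 44 and 27. When each library was left out, 0 genes were called higher and 0 to 1 lower, the 1 call arising without control replicate 1. With DESeq2 at the same thresholds, the study reported more genes in each direction than the DESeq2 fit here. The cause of these differences was not tested. Of the 10 members, 3 had a negative log2 fold change, but 5 did with library size only and 5 with the block, and 4 to 5 did when a library was left out. The changes of sign were in genes near 0. MORF4L2 (0.01) went to -0.03 with library size only, to -0.13 with the block and to between -0.06 and 0.06 with a library left out. TRRAP (0.02) went to -0.03 with library size only and to between -0.05 and 0.07 with a library left out. DMAP1 ranged from -0.05 to 0.12 and ING3 from -0.08 to 0.29 when a library was left out, and ING3 was at -0.04 with the block. The median of the 9 partners was 0.05 and ranged from 0.04 to 0.12 when each library was left out, the highest without control replicate 5. With library size only it was 0.00, and that scaling moved the median of all genes from -0.01 to -0.06. With the block, H2AZ1 (-1.66, adjusted p = 6.09e-05), BRPF3 (-0.63, 0.00688) and KAT6B (0.60, 0.00915) passed both thresholds in edgeR. Per kilobase of the canonical transcript, a length chosen after seeing the data, the control level of MORF4L1 was 105 in place of 34.7.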

Other observations

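Over the 6 libraries, the genes whose log2 CPM was most like that of MORF4L1 were DENND1C (Pearson r = 0.997), SYVN1 (0.997), PYURF (0.996), TMEM38B (0.993) and the long non-coding RNA ENSG00000260922 (0.992). The points are the same 6 libraries in 2 groups, so much of each r is the gap between groups, and no p is given. SYVN1, a ubiquitin ligase of the endoplasmic reticulum, was at 76.9, 80.8 and 81.6 CPM in control and 57.5, 64.6 and 55.6 CPM in siRBM3. PYURF was at 48.6, 63.2 and 62.0 CPM against 25.5, 35.6 and 23.4 CPM. In both, control replicate 1 was the lowest control and siRBM3 replicate 4 the highest siRBM3 library, as for MORF4L1. TMEM38B, a cation channel of the endoplasmic reticulum, had at least 10 CPM in each control and at most 6.08 CPM in each siRBM3 library. DENND1C and ENSG00000260922 stayed under 1 CPM in every library.

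The most opposite patterns were those of NUMB (r = -0.995), an inhibitor of Notch signalling, at 84.7, 81.6 and 82.9 CPM in control and 95.9, 91.5 and 95.8 CPM in siRBM3, and of B9D2 (-0.993), a protein of the ciliary transition zone. Of the partners, MRFAP1 had the highest r with MORF4L1 (0.62) and KAT5 the lowest (-0.70). MORF4L1P1 was at 0.97 and H2AZ1 at 0.91.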
